A study of Homo sapiens with 172 samples.

Results

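Chromosome 12 is described here as it meets the nuclear lamina in single human cells, bin by bin and cell by cell. Its members are all 100 kb bins of the chromosome in the deposited table that carry a value and are not 0 in every column. This left 1309 of its 1339 bins, and 4.96% of the 26414 covered bins of the genome. Coordinates are those of hg19, as the table gives them. The 172 labelled samples form 1 group: haploid (1N) cells of clone 5-5 of KBM7, a human myeloid leukaemia line with close to a single copy of its genome. All cells carried the methyltransferase Dam fused to LaminB1. The stabilising ligand Shield1, which protects the fusion from breakdown, was given at 0.5 nM for 15 h before harvest. Cells were kept in medium with 1% serum for the sort. Sorting took 1 cell at a time from the smallest 2% of those that carried both colours of the Fucci cell cycle reporter. There was 1 clone, no second group and no separately named culture, so nothing was tested between groups. Every SD below is over cells and describes how cells differ, not replicate error.

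The lamina is a protein mesh under the inner nuclear membrane, and the parts of chromosomes that touch it are called lamina-associated domains. Such domains are known to be long, gene-poor, mostly silent and late in replication. In DamID, Dam methylates adenines in DNA that comes close to the fused lamin, so the methylated fragments record contacts over hours. A domain that is bound in one cell need not be bound in the next, which is why contacts are counted over single cells. Chromosome 12 is of medium size, with a short arm that carries a cluster of natural killer lectin receptor genes and a long arm that carries the HOXC genes and the type II keratins. Among the 20 chromosomes with covered bins that are not listed as joined, it ranks the seventh highest in coding genes per Mb. The joined 9:22 and 22:9 were not ranked. Chromosome 12 has 1024 coding genes, or 7.65 per Mb of its hg19 length, in a gene table of build GRCh38.p14. Positions in that table belong to another build than the bins, so genes were counted for the chromosome as a whole and no bin was given a gene name.

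The table holds every cell as a pair of samples, numbered 86 apart. For all 168 columns the best match in log reads over the genome was the column 86 numbers away. In 82 of 84 such pairs the read counts differed by less than the sampling noise (chi-square per bin under 1), against 0 of 13944 combinations of columns from different cells. Means of paired columns were used, so n = 84 cells, and a cell carries the lower sample number of its pair. Counting the deeper column, cells had between 7134 and 418935 reads (median 63700), of which 174 to 23460 (median 2984) lay on chromosome 12. A ratio of observed over expected reads of 1 stood for 2.65 reads in a chromosome 12 bin of median expectation in the median cell, and for less than 1 read in 13 cells. In shallow cells an absent contact and a missed one cannot be told apart.

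Some cells stood apart on this chromosome. Cell 69 had 54 of 180948 reads on chromosome 12 in its lower-numbered column and 507 of 250543 in the other, or 0.0298% and 0.202% of its reads. Cell 79 had 64 of 41795 and 705 of 59986 reads there, or 0.153% and 1.18%. In the other 82 cells chromosome 12 took between 0.982% and 12.7% of the reads in the lower-numbered column, with a median of 4.68%. The lower end of that range was cell 78, with 1944 reads on the chromosome. With so few reads on the chromosome, its loss from the cell, a failure to recover it and a true lack of contact cannot be told apart in cells 69 and 79. The main shares, correlations and stretch values are therefore given with and without both cells. Cells 54 and 56, whose paired columns differed by 1.53 and 3.6 in chi-square per bin, and cell 48, which had the most runs of contact, are left out in an alternative.

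Contact was called where the ratio of a bin reached 1. Chromosome 12 had 25.4% ± 9.88 of its bins in contact (SD, n = 84 cells). The lowest cell was at 0%, the median at 26.4% and the highest at 47.4%. The rest of the genome had 27.9% ± 6.59 in the same cells, with a range from 14.7 to 42.1%. Chromosome 12 was therefore lower by a mean of -2.45 ± 8.18 percentage points, a difference smaller than its spread over cells. It was below the rest of the genome in 52 cells and above it in 32. Without cells 69 and 79 the mean was 26.0% ± 9.17 and the difference -1.85 ± 7.15 points, below in 50 of 82 cells. By mean share the chromosome is the twelfth of the 22 chromosomes with values.

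The cells with the highest shares were cell 74 with 47.4%, cell 75 with 44.5%, cell 48 with 42.2%, cell 32 with 41.0% and cell 6 with 40.8%. In each of these the rest of the genome was high too, between 34.9 and 42.1%. At the other end cell 69, with its few reads on the chromosome, had no bin in contact, while 36.4% of its other bins were. Cell 79 had 6 bins in contact, or 0.458%, against 18.4% elsewhere. Cell 78 had 65 bins in contact, or 4.97%, against 38.4% elsewhere. In its deeper column 3046 reads, or 1.12%, lay on chromosome 12, and the cause of its low share was not tested. Next by share came cells 16 and 25 with 8.10 and 10.2%, and both were below the mean of cells in the rest of the genome as well, at 17.3 and 22.2%. By the difference from the rest of the genome cell 46 came next, with 11.9% against 29.4%, or -17.5 points, close to the -17.9 points of cell 79. Cells 15 and 86 followed with -15.8 and -15.7 points. The largest excess, chosen after the values were seen, was in cell 68. It had 31.7% of chromosome 12 in contact against 16.5% elsewhere, and 12.7% of the reads in its lower-numbered column lay on the chromosome.

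Over the 84 cells the share of chromosome 12 rose with that of the rest of the genome (Pearson r = 0.57, Spearman's rho = 0.61, given as a description). The points share the depth of their cell. The coefficient was 0.52 without cells 74 and 19, the farthest from the median of the rest of the genome, and 0.63 without cells 69 and 79. It was 0.81 in cells 1 to 29 and 0.45 in cells 30 to 86, a set that includes cells 69, 78 and 79.

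**Figure D1:**
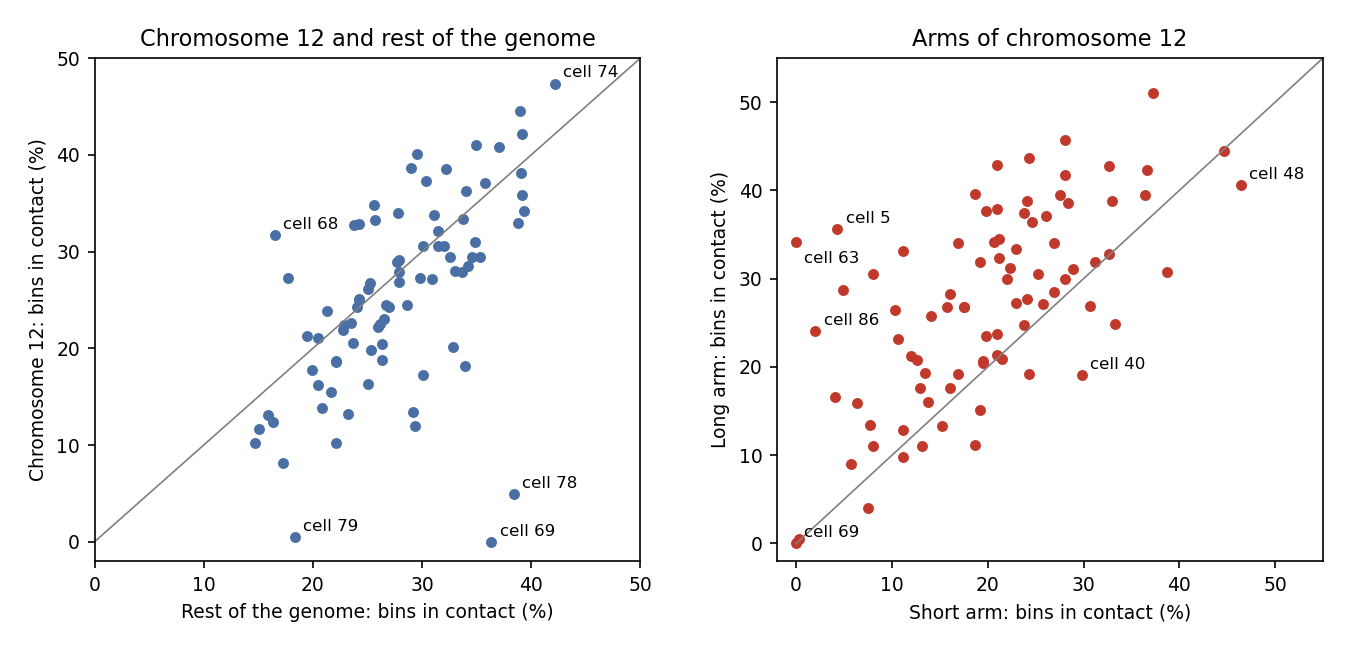
Left, percent of chromosome 12 bins in contact against percent of all other covered bins in contact; right, percent of long arm bins against percent of short arm bins in contact. Each point is 1 of 84 cells and the grey lines mark equal values. Cells 69 and 78 lie farthest below the left line, followed by cells 79 and 46, and 69 of 84 cells lie above the right line.

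The arms are divided by a stretch without signal at 34900001 to 37800000, which spans 29 bins at the centromere. The short arm has 349 covered bins and the long arm 960. The short arm had 20.0% ± 10.0 of its bins in contact, with a median of 20.8% and a highest cell of 46.4%. The long arm had 27.4% ± 10.9, with a median of 28.0% and a highest cell of 51.0%. The long arm exceeded the short arm by 7.37 ± 8.91 points, and was higher in 69 cells, lower in 14 and equal in 1. The ranges of the arms over cells overlap almost entirely. Without cells 69 and 79 it was 7.55 ± 8.95 points. It was 7.81 ± 7.91 in cells 1 to 29 and 7.14 ± 9.46 in cells 30 to 86.

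In single cells the arms could part company, as the following cells, chosen after their values were seen, show. Cell 63 had no contact on the whole short arm, from position 1 to 34900000, but 34.2% of its long arm bins in contact. Only 12 of its 102033 reads in the lower-numbered column fell on the short arm, or 0.0118%, against a median of 0.905% over cells. On its long arm that column had 6639 reads, or 6.51% of the total, above the median of 3.71%. In the higher-numbered column the short arm had 99 reads. Cell 86 had 2.01% of the short arm and 24.1% of the long arm in contact, and 151 reads on the short arm in its lower-numbered column. Cell 5 had 4.3 and 35.6%. The reverse was milder: cell 40, the most tilted towards the short arm, had 29.8% of the short and 19.1% of the long arm in contact. In cell 63 too, loss of the arm, a failure to recover it and a true lack of contact cannot be told apart. Without cells 63, 69 and 79 the long arm exceeded the short arm by 7.22 ± 8.49 points.

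Short and long arm shares rose together over cells, with Pearson r = 0.64 and Spearman's rho = 0.62 (n = 84, a description). After subtraction of a linear fit on the share of the rest of the genome, r was 0.55, and 0.46 without cells 69 and 79. Without cells 48 and 75, the farthest from the median of the short arm, the uncorrected r was 0.62. In cells 1 to 29 and 30 to 86 it was 0.68 and 0.62.

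Contact frequency, the percent of the 84 cells in which a bin is in contact, fell into a low and a high group along the chromosome. Of the 1309 bins, 655 lay under 10% and 82 from 10 to 20%. Only 69, 61 and 63 bins lay in the next classes of 10 percentage points, up to 50%. The numbers rose again to 159 bins at 50 to 60% and 176 at 60 to 70%, and ended with 42 at 70 to 80% and 2 above. In all, 379 bins (29.0%) were contacted in at least 50% of cells, where the genome has 30.7% of its covered bins. Under 5% were 542 bins (41.4%), against 36.7% of the genome. No cell contacted 76 bins (5.81%, genome 6.19%). A count of 0 is not a frequency of 0, and 3 of 84 cells, or 3.57%, is a rough limit for it, missed contacts aside. From 20 to 80% were 570 bins (43.5%, genome 47.4%). In at least 70% of cells were 44 bins (3.36%, genome 6.3%), and in at least 80% were 2 (0.153%, genome 0.303%). The arms differed in these classes: 19.8% of short arm bins and 32.3% of long arm bins were contacted in at least 50% of cells, and 46.7 and 39.5% in under 5%. Bins at 50% or more held 70.4% of the 27960 contacts on the chromosome, and bins under 5% held 3.6%.

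**Figure D2:**
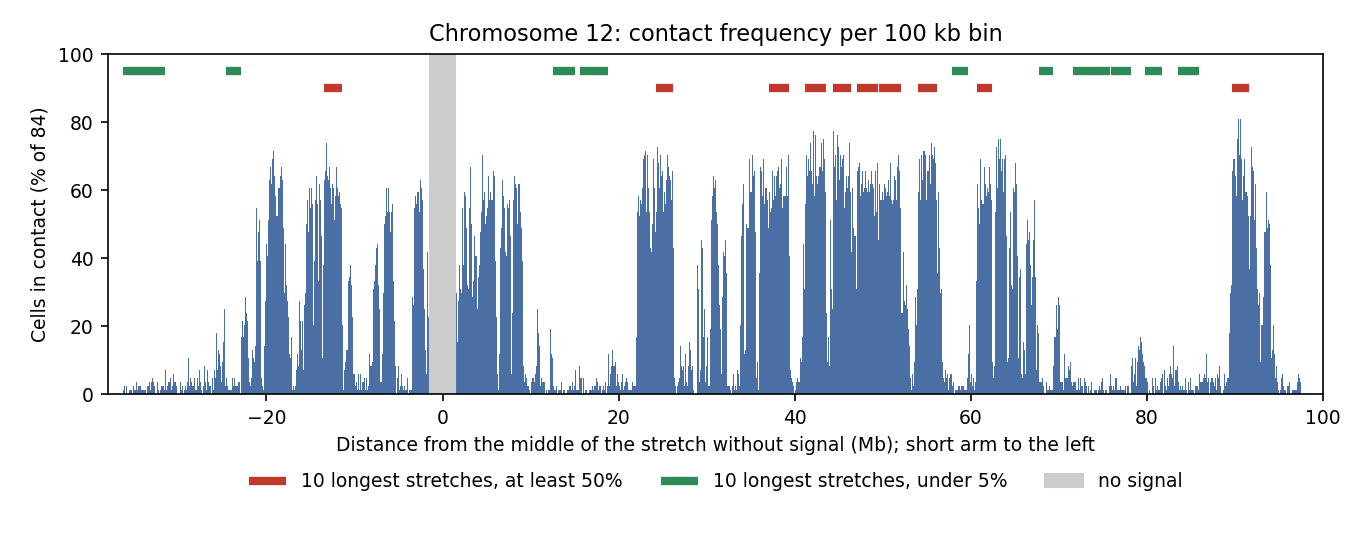
Percent of 84 cells in contact for each 100 kb bin of chromosome 12, by distance in Mb from the middle of the stretch without signal (grey), with the short arm to the left. Red and green lines mark the 10 longest stretches contacted in at least 50% and in under 5% of cells. The highest bins reach 81.0%. Long stretches under 5% lie at the short arm end, at about 15 Mb into the long arm, and between 108000001 and 122300000 on the long arm.

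Read from the short arm end, the chromosome opens with a free part. From 1 to 10000000, 2.39% ± 4.26 of bins were in contact (SD over cells), 93 of 100 bins were under 5%, and 38 cells had no contact at all. The next 10 Mb rose to 22.2% ± 12.6, with 19 bins at 50% or more. The windows that start at 20000001 and 30000001 stood at 32.0% ± 17.1 and 31.2% ± 18.5, the latter with 71 covered bins around the centromere. On the long arm, the window from 40000001 had 27.9% ± 16.0 and the one from 50000001 fell to 12.1% ± 7.18, with 71 of 100 bins under 5%. The window from 60000001 returned to 28.3% ± 14.6.

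The middle of the long arm was the part most often at the lamina. The window from 70000001 had 47.8% ± 21.1 of bins in contact, that from 80000001 had 51.8% ± 22.8 and that from 90000001 had 36.5% ± 17.2. In the second of these only 4 of 100 bins were under 5%, and 47 cells had more than 50% of it in contact. These 30 Mb hold 22.9% of the covered bins of the chromosome but 187 of its 379 bins at 50% or more, or 49.3%. Put together after their values were seen, they had 45.4% ± 18.8 in contact against 19.5% ± 8.05 for the rest of the chromosome. The difference was 25.9 ± 13.7 points, and it was positive in 81 cells and negative in 2. The shares were 46.5% ± 17.6 and 20.0% ± 7.55 without cells 69 and 79.

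Beyond 100000001 contact fell away and came back once. The window from 100000001 had 18.4% ± 11.4 and that from 110000001 had 3.89% ± 5.16, with no bin at 50% or more and 22 cells without contact. The window from 120000001 rose to 24.0% ± 12.2, with 26 bins at 50% or more next to 50 under 5%. The last 38 covered bins, from 130000001, had 8.87% ± 7.40. Neighbouring windows such as those from 20000001 and 30000001 differ by far less than their spread over cells, whereas the windows from 1 and from 110000001 lay below the cell's own rest of the genome in every cell. Leaving out cells 69 and 79 raised the share of each window by 0.058 to 1.24 points.

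Bins at 50% or more came in 49 separate stretches with a median length of 0.3 Mb. Of these 15 were single bins and 15 were at least 1 Mb long, and the latter held 74.9% of such bins. The 10 longest held 213 of the 379 such bins (56.2%) and are given by region, those of the middle of the long arm first. They were picked by frequency, so their frequencies are a description. The longest was 85900001 to 88400000, with 25 bins, a mean frequency of 61.0% and bins from 54.8 to 70.2%. It is separated by a single bin at 45.2% from the third longest, 83400001 to 85800000, with 62.3%. The second was 77500001 to 79900000, with a mean of 66.5%, and its flanking bins had 31.0 and 23.8%. The fourth was 73400001 to 75700000, with 60.8%. The fifth was 90400001 to 92500000, with 66.7%, the highest mean among the 10. Near to them in length were 80700001 to 82700000 with 66.1% and 97000001 to 98800000 with 59.5%. These 7 stretches all lie between 73400001 and 98800000.

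The other three of the 10 lie apart. The stretch 22900001 to 24900000 is the only one on the short arm, with 20 bins and a mean of 61.5%. At 60600001 to 62500000 lies a stretch of 19 bins with a mean of 63.3%. The stretch 126000001 to 127900000, close to the long arm end, also has 19 bins, with a mean of 66.2% and bins from 52.4 to 81.0%. The 10 means lay between 59.5 and 66.7%, and between 61.0 and 68.4% without cells 69 and 79. Differences among them were not tested. The eleventh stretch would have been 1.7 Mb long, just under the 1.8 Mb of the tenth.

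Bins under 5% formed 83 stretches with a median of 0.3 Mb, of which 17 were at least 1 Mb long. The longest was the short arm end itself, 1 to 4800000, with a mean frequency of 1.61%, where 53 of 84 cells had no bin in contact. Next came 108000001 to 112200000 with 1.76% and, after 1 bin at 5.95%, 112300001 to 114500000 with 1.57%. A pair of free stretches lay at 48900001 to 51400000 with 1.43%, the lowest mean of the 10, and at 52000001 to 55100000 with 1.80%. Others on the distal long arm were 119900001 to 122300000 with 1.88% and 116100001 to 118100000 with 2.44%. The remaining ones were 94200001 to 96000000 with 1.98%, 11800001 to 13400000 with 2.53%, and 104100001 to 105700000 with 2.08%. No cell had every bin of any of these stretches in contact, and the highest single value was 55.6% of bins of 94200001 to 96000000 in 1 cell. That stretch lies within the often contacted middle of the long arm, between neighbours at 90400001 and 97000001.

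The highest frequencies were reached near the long arm end. The bins 126700001 to 126800000 and 126900001 to 127000000 were each contacted in 68 of 84 cells, or 81.0% (exact Clopper-Pearson 95% interval 70.9 to 88.7%). The next were 78400001 to 78500000 and 80700001 to 80800000 with 65 cells each, or 77.4% (67.0 to 85.8%). The fifth was 78700001 to 78800000 with 64 cells, or 76.2% (65.7 to 84.8%). The intervals of all 5 overlap, cover counting error only, and do not allow for the choice of the highest among 1309 bins. In the 35 cells with at least 100000 reads in the deeper column these bins had frequencies from 80.0 to 88.6%.

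Some borders were sharp at the size of a few bins. The largest step between the means of 5 bins on either side lay at 62600001, where frequency fell by 56.4 points, from 58.6 to 2.14%. In 73 cells the side before the border had more bins in contact and in 1 cell the side after it. At 75800001 it fell by 54.8 points, from 58.8 to 4.05%. At 58400001 it rose by 51.7 points, from 5.48 to 57.1%, with the side after the border higher in 63 cells and lower in 3. The fourth was a fall of 49.5 points at 42300001, from 63.6 to 14.0%, and the fifth a rise of the same size at 66800001, from 9.76 to 59.3%. The borders at 58400001 and 62600001 enclose the region that holds the stretch from 60600001. Each step was picked for its size and is a description.

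The ends of the chromosome were rarely in contact, and the flanks of the stretch without signal more often than most of the chromosome. The first 2 Mb had 1.31% ± 3.02 of bins in contact, 66 cells had none, and no cell exceeded its own rest of the chromosome there. The last 2 Mb, from 131800001, had 2.02% ± 5.49, with no contact in 67 cells. The 2 Mb before the stretch without signal, 32900001 to 34900000, had 41.6% ± 26.8, above the rest of the chromosome in 62 cells. The 2 Mb after it, 37800001 to 39800000, had 40.1% ± 29.2, above in 54 cells. Both flanks spanned bins of very different frequency, from 5.95 to 63.1% before and from 15.5 to 66.7% after. Many of these bins had a low expected read number, down to 24 before and 10 after, so that 1 read can reach a ratio of 1 there. In bins with an expectation of at least 200, a limit set after the values were seen, the mean frequency was 49.6% before (13 bins) and 48.0% after (10 bins). In the others it was 26.7% (7 bins) and 32.3% (10 bins).

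Within single cells, contacts formed runs of neighbouring bins. The 84 cells had 8267 runs on chromosome 12, and 50.1% of them were a single bin. Per cell the mean run was 3.75 ± 1.87 bins (SD, n = 83 cells with a contact), from 1.2 to 9.13 with a median of 3.12. A cell had 98.4 ± 40.0 runs. Cell 48 had the most, with 263 runs averaging 2.1 bins, although it had the third highest share, and cell 32 with nearly the same share had 71 runs averaging 7.56 bins. Single bins held 14.8% of all contacts, runs of 2 to 4 bins 23.9%, runs of 5 to 9 bins 21.2%, runs of 10 to 19 bins 23.0%, runs of 20 to 49 bins 15.6%, and longer ones 1.48%. Mean run length was 5.21 ± 1.86 bins in the 35 cells with at least 100000 reads. It was 2.83 ± 1.11 bins in cells 1 to 29 and 4.24 ± 2.01 in cells 30 to 86. The deepest of cells 1 to 29 had 90564 reads, so the 35 deeper cells all belong to cells 30 to 86. Depth and numbered set are therefore not separate comparisons. How much of the difference in run length is depth was not tested.

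The longest runs lay in the middle of the long arm. Cell 75 was in contact without a break from 80300001 to 89400000, which is 9.1 Mb. Cell 63 followed with 80400001 to 88300000, or 7.9 Mb, in a cell whose short arm had no contact. Cells 67 and 23 had runs of 7.1 and 6.7 Mb, from 81300001 and from 80700001. Cell 74 had a run of 5.6 Mb from 77100001 and another of 5.1 Mb from 125500001 to 130600000. These 6 were the only runs of at least 50 bins. Runs of at least 20 bins had 28.5% of their bins in the window from 80000001 and 20.2% in the window from 70000001. These windows also had the most contact, with 51.8 and 47.8% of bins. Such runs had no bin in the windows from 1, 100000001 and 110000001, where 2.39, 18.4 and 3.89% of bins were in contact.

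Stretches free of contact in a cell were longer than contacts. The longest in a cell had a mean of 15.5 ± 11.5 Mb, a median of 13.6 Mb and a lowest value of 2.5 Mb, in cell 48. Without cells 69 and 79 the mean was 14.1 ± 6.65 Mb. In cell 69 the free stretches were the whole short arm and 94.9 Mb of the long arm. Cell 78 had no contact from 37800001 to 74000000, cell 44 none from 101100001 to 132300000, and cell 86 none from 40700001 to 70100000.

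**Figure D3:**
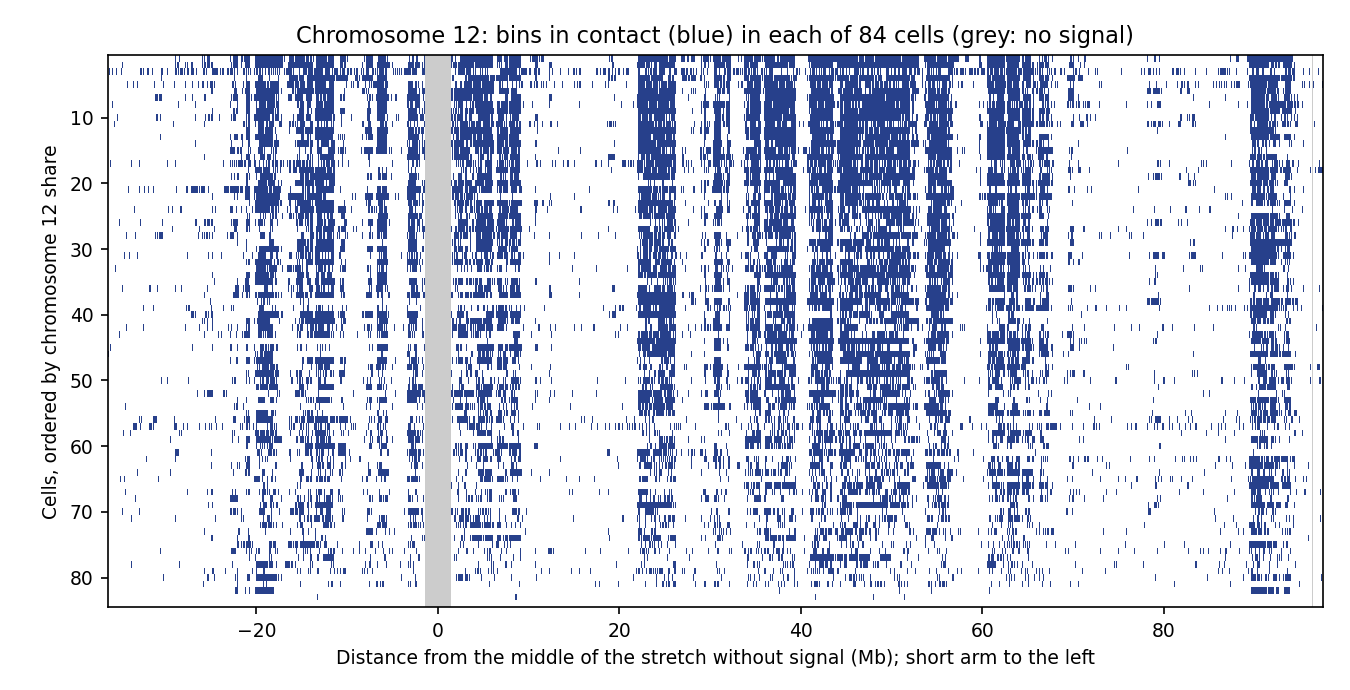
Bins of chromosome 12 in contact (blue) in each of 84 cells, 1 row per cell from the highest to the lowest share of the chromosome, by distance in Mb from the middle of the stretch without signal (grey). The same blocks recur from cell to cell as columns, the third row (cell 48) is dotted over the whole length, and the last row (cell 69) is empty.

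Cells took up the same stretches in different number. Of the 10 longest contacted stretches, a cell had more than 50% of the bins in contact in 6.67 ± 3.25, with a median of 8. All 10 were touched that way in 19 cells, 9 in 15 cells and 8 in 13 cells, while 5 cells had none and 4 cells had 1. The mean was 6.83 ± 3.11 without cells 69 and 79, and 3 cells had none. Each stretch was touched over more than 50% of its bins by between 49 cells, for 97000001 to 98800000, and 63 cells, for 90400001 to 92500000. Called contact within a stretch was often partial. Over the 840 combinations of cell and stretch, 27.7% had over 90% of bins in contact, 9.05% had under 10%, and 63.2% lay between. Every bin was in contact in 15.5% of combinations and none in 4.52%. Of the 10 longest free stretches, a cell had at least 1 bin in contact in 2.51 ± 2.81, with 32 cells at 0 and 2 cells at all 10. This was 2.57 ± 2.82 without cells 69 and 79.

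The stretches differed little in how they were filled. In 77500001 to 79900000, the share of bins in contact had a median of 70.8% over cells, and 3 cells had none. The short arm stretch 22900001 to 24900000 had a median of 65.0%, with 7 cells at none and 16 cells at all bins. The stretch 126000001 to 127900000 had the highest median, 78.9%, with 5 cells at none and 16 at all bins.

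**Figure D4:**
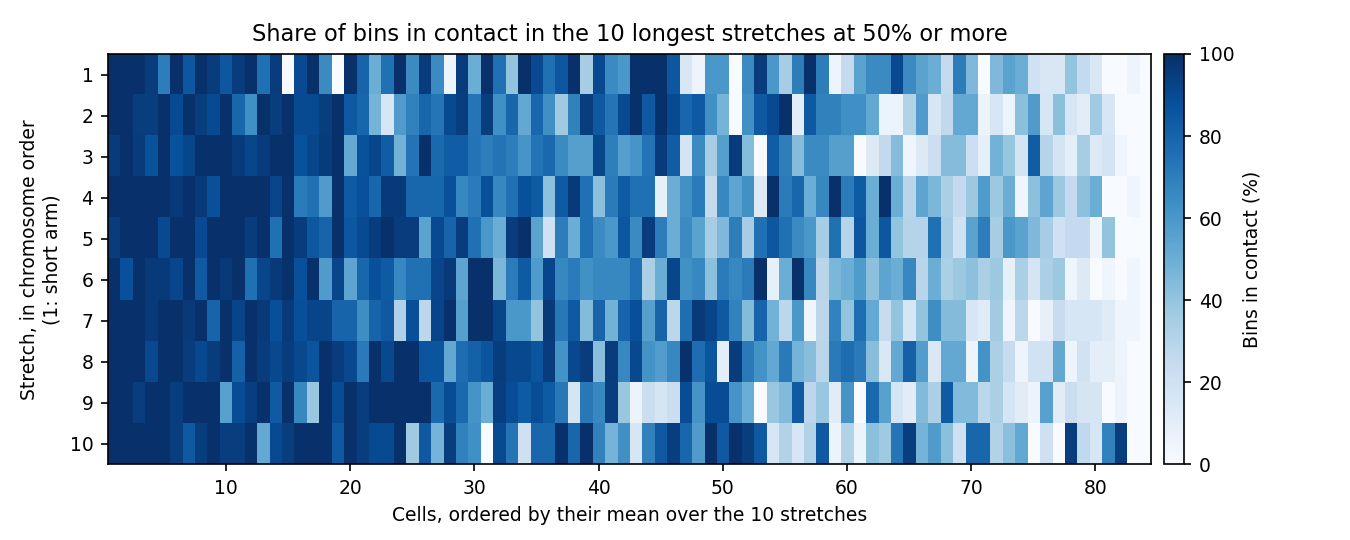
Percent of bins in contact (shade) in the 10 longest stretches contacted in at least 50% of cells, 1 row per stretch in chromosome order, for 84 cells ordered by their mean over the 10. Shade is full in most stretches of the cells at the left and pale in those at the right, and 19 cells had more than 50% of the bins in contact in all 10.

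On average, stretches close to each other were taken up by the same cells more than distant ones. The 45 pairs of these 10 stretches had a mean correlation over cells of 0.56, and of 0.47 after correction for the share of the rest of the genome (description, n = 84; the points share depth). After correction, pairs less than 10 Mb apart averaged 0.61 (14 pairs) and pairs at 10 Mb or more 0.41 (31 pairs). Of the latter, the 9 pairs on different arms averaged 0.33. Without cells 69 and 79 these were 0.55, 0.33 and 0.25. The 9 pairs all involve the only short arm stretch and lie 35.7 to 101.1 Mb apart, so arm and distance cannot be told apart. Long arm pairs 37.6 to 63.5 Mb apart, all with the stretch from 126000001, had 0.11 to 0.33. The highest value of the 45 pairs, 0.73, belonged to 83400001 to 85800000 and 85900001 to 88400000, which are 0.1 Mb apart. In 44 cells both were over 50% in contact, in 23 neither, and in 17 only one. The lowest, 0.11, belonged to 77500001 to 79900000 and 126000001 to 127900000, which lie 46.1 Mb apart, with 43, 12 and 29 cells. Without cells 69 and 79 this pair stood at -0.03.

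The same decline was seen over all 570 bins contacted in 20 to 80% of cells. Adjacent bins correlated over cells at 0.45 ± 0.11 (SD over 524 pairs) after correction for the rest of the genome. The mean was 0.26 at 1.1 to 2 Mb, 0.17 at 5.1 to 10 Mb, 0.16 at 10.1 to 20 Mb, 0.12 at 20.1 to 50 Mb, 0.07 at 50.1 to 100 Mb and 0.04 beyond. Without cells 69 and 79 the values were 0.43, 0.23, 0.14, 0.13, 0.09, 0.05 and 0.01. The values moved with the set of cells. At 1.1 to 2, 5.1 to 10, 10.1 to 20 and 20.1 to 50 Mb they were 0.17, 0.08, 0.07 and 0.05 in cells 1 to 29, and 0.30, 0.21, 0.20 and 0.15 in cells 30 to 86. The later set includes cells 69 and 79. Without correction the values in all cells were 0.48, 0.30, 0.22, 0.21, 0.17, 0.13 and 0.09. At 20.1 to 50 Mb pairs within an arm averaged 0.13 and pairs across the centromere 0.10. At 50.1 to 100 Mb the order was the other way, with 0.06 within the long arm and 0.08 across. The values beyond a few Mb are weak, and the SD over pairs was from 0.11 to 0.12 at every distance, so they describe means of many pairs.

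**Figure D5:**
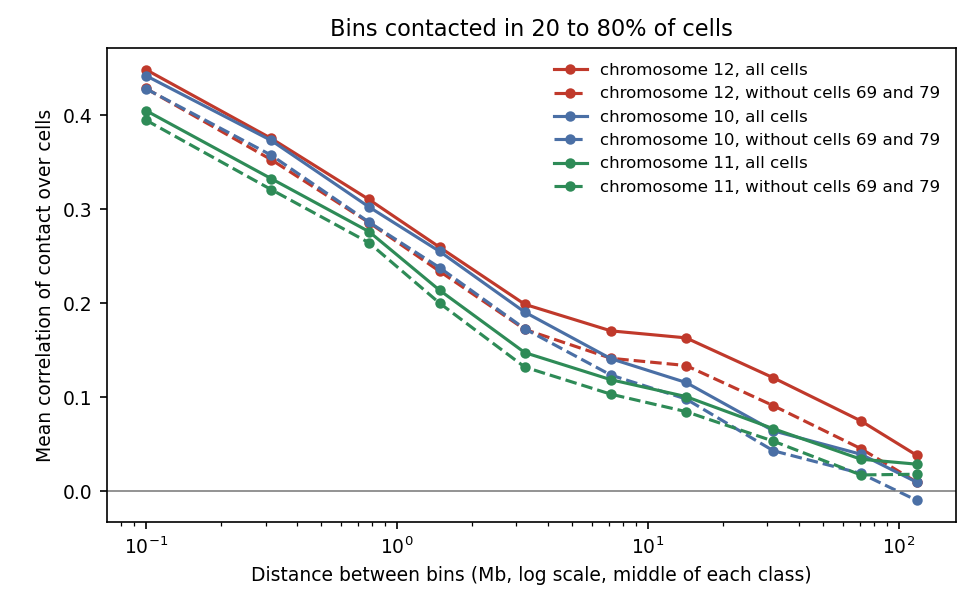
Mean correlation of contact over cells for pairs of bins contacted in 20 to 80% of cells, corrected for the share of the rest of the genome, by distance between the bins on a log scale, for chromosomes 12, 10 and 11. Solid lines use all 84 cells and dashed lines 82 cells; on chromosome 12 the mean falls from 0.45 for adjacent bins to 0.04 beyond 100 Mb.

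Chromosomes 10 and 11, the closest in length (136 and 135 Mb against 134 Mb), served for comparison. Chromosome 12 was above chromosome 10, which had 24.2% ± 7.70, by 1.21 ± 10.1 points, and higher in 49 cells and lower in 34. The direction turned with the set of cells, since the difference was -1.71 points in cells 1 to 29 and 2.74 points in cells 30 to 86. It was below chromosome 11, which had 30.3% ± 10.1, by a mean difference of -4.90 ± 11.1 points, and lower in 55 cells and higher in 29. The differences were 1.46 ± 9.95 and -3.84 ± 8.74 points without cells 69 and 79. Both differences are smaller than their spread over cells. Bins at 50% or more made up 24.8% of chromosome 10, 29.0% of chromosome 12 and 35.5% of chromosome 11. The longest such stretch was 2.5 Mb on chromosome 12, 4.9 Mb on chromosome 10 and 5.3 Mb on chromosome 11. Free stretches were also shorter at most, with 4.8 Mb against 6.3 and 6.8 Mb. In single cells the pooled mean run was 3.38 bins, between 3.16 on chromosome 10 and 3.53 on chromosome 11, and the longest run of 9.1 Mb exceeded their 7.5 and 7.4 Mb. Runs of at least 50 bins numbered 6 on chromosome 12, 12 on chromosome 10 and 25 on chromosome 11. Adjacent bins correlated at 0.44 on chromosome 10 and 0.40 on chromosome 11. At 20.1 to 50 Mb the mean was 0.12 on chromosome 12, 0.06 on chromosome 10 and 0.07 on chromosome 11, and without cells 69 and 79 it was 0.09, 0.04 and 0.05. None of these differences between chromosomes was tested.

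The height of the signal is set beside the frequency as a description, since both come from the same ratios. Over cells, 52.2% of chromosome 12 values were 0, 22.3% lay above 0 and under 1, and 25.4% were at least 1. Where a bin was in contact the ratio had a median of 2.50 in bins at 50% or more and of 1.46 in bins under 5%. The mean ratio over all cells, which rises with frequency by construction, was 2.04 in the median bin of the first kind. It was 0.0915 in that of the second. The authors' expectation per bin, worked back from the ratios, had the same level in both, with medians of 315 and 314, and its correlation with frequency over the 1309 bins was 0.01. That holds for the chromosome as a whole and not for the flanks of the stretch without signal, described above.

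Deeper cells showed the pattern with more contrast. In the 35 cells with at least 100000 reads the 10 contacted stretches had mean frequencies from 68.7 to 78.8%. The range in all cells was 59.5 to 66.7%. The 10 free stretches had a median of 0.726% in the deeper cells, with a range from 0.357 to 2.54%. In all cells the median was 1.84% and the range 1.43 to 2.53%. The free stretch from 94200001 went the other way, from 1.98% in all cells to 2.54% in the deeper ones. These 35 cells are all among cells 30 to 86. In them chromosome 12 had 28.2% ± 10.5 of its bins in contact, and the rest of the genome 31.6% ± 5.14.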

How the data were processed

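Single-cell DamID of 172 labelled samples was analysed from 1 deposited table of 100 kb bins in hg19. The authors' values are a ratio of observed over expected reads per bin and cell. Tools named are cutadapt and Bowtie2 2.1.0, per the submitters' processing notes. How duplicates were treated and where the expectation comes from is not given in the sources used here. Of the labelled samples, 168 have a column. Samples 81, 82, 167 and 168 are not analysed here. Columns n and n + 86 were averaged as 1 cell. No p-value was made from cells.

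Reads were worked back as whole multiples of a step per bin and column, which worked for 99.999% of nonzero values, to within 0.02 of a read. This, run lengths and correlations were tested on simulated data. No molecular identifiers are described, so PCR copies may be counted as separate reads and intervals cover counting error only. Correction for contact share subtracts, for each bin or stretch, a linear fit on the share of the other chromosomes.

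Named regions were the 10 longest stretches of neighbouring bins at 50% or more and under 5%, the 5 highest bins, the 5 largest steps (5 bins on each side, at least 10 bins apart), ends, centromere flanks and 10 Mb windows. Named cells were the 5 highest and 5 lowest and those with the longest runs. Other cells were named after their values were seen. They stood out by reads, runs, free stretches, distance from the median, or differences from the rest of the genome or between arms. The members and these rules were chosen with earlier results of these data known. Alternatives were other cutoffs, scaling, columns, sets of cells, 5-bin averages and trimmed ends. Python 3.11.15, numpy 2.4.6, pandas 2.3.3 and scipy 1.17.1 were used.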

Additional observations from a re-analysis of the deposited data

How the results depend on the processing

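Under 15 alternatives, 98 of 105 values of the 7 main results stayed within 1 SD of the reported value or, for percents of bins, within 1.5-fold. This SD is over cells and is wide. It exceeds the value itself for the difference from the rest of the genome (-2.45 ± 8.18 points) and for that between arms (7.37 ± 8.91). A change of either to 0 would still be counted as within 1 SD, so the count says little about them. The share of chromosome 12 was 14.8% at a cutoff of 2, by construction. Bins at 50% or more were 16.3% at a cutoff of 1.5 and 3.13% at 2, and bins under 5% were 18.9% at a cutoff of 0.5. Averages of 5 bins, which merge neighbours, gave a mean run of 12.7 bins and a correlation of adjacent bins of 0.83. That correlation was 0.57 in the 35 cells with at least 100000 reads, and the cause was not tested. The difference from the rest of the genome was negative in all 16 alternatives run (-3.35 to -1.56 points), including one added after seeing the data, without cells 63, 69 and 79. The excess of the long arm was positive in all 16 (4.75 to 8.87 points). The difference from chromosome 10 was -1.71 points in cells 1 to 29 and positive in the other 15 alternatives. No paired analysis was possible because no second group shares sample numbers with the only one; differences within cells are given in the report. Depth limits the calls, since a ratio of 1 stood for under 1 read in 13 cells.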
